A study of Mus musculus with 14 samples.

Results

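Mature oligodendrocytes were followed through 35 of their genes, taken by name from a list of myelin proteins, myelin lipid enzymes, oligodendrocyte transcription factors and other oligodendrocyte transcripts. All 35 had a row among the 23337 gene symbols counted in each library, and all 35 passed the filter on low counts in every comparison. The libraries were bulk RNA-seq of dissected brain from C57Bl/6 mice aged 6 months. Thap1 conditional knockout (cKO) was compared with wildtype (WT), with 3 samples of each genotype from striatum and 4 of each from cerebellum. The wildtype mice were littermate controls. No source used here gives the Cre driver, the cells it acts in or the deleted part of Thap1, so the cKO groups are described only by that label. Whether each sample is a separate animal is not stated either, and p-values then measure only the spread between these samples, which may be technical.

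Oligodendrocytes wrap axons of the central nervous system in myelin, a stack of membrane that is compacted by proteins such as MBP and is rich in galactolipids. At the edges of each myelin segment, non-compacted loops attach to the axon at the paranode, beside the node of Ranvier. The lineage is specified by the transcription factors OLIG1 and OLIG2, and SOX10 and its partners turn on the myelin genes as precursors mature. The transcription factor THAP1 is mutated in the movement disorder DYT6 dystonia. Striatum and cerebellum are both motor regions. Striatum is crossed by bundles of myelinated fibres, and the cerebellum holds a core of white matter.

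Libraries held 12595941 to 14258141 counts in striatum and 19458954 to 28099205 in cerebellum. Levels are in CPM, a count divided by the library total after scaling for library composition within a tissue, and the libraries of a group are given in the order of their replicate numbers. Thap1 itself stood at 13.2, 14.4 and 15.3 CPM in WT striatum and at 5.25, 7.65 and 3.77 CPM in cKO striatum. In cerebellum it stood at 10.3, 8.15, 10.5 and 8.32 CPM in WT and at 7.34, 7.45, 7.79 and 6.85 CPM in cKO. Every cKO value lay below every WT value, and the log2 fold change was −1.36 in striatum (adjusted p = 0.0562, edgeR's quasi-likelihood test) and −0.34 in cerebellum (adjusted p = 0.0488). Where the deletion lies is not known, so reads from the undeleted part are counted. Striatal neuron markers summed to 9039 to 11168 CPM in the striatal and 355 to 428 CPM in the cerebellar libraries. Replicate 1 of WT striatum stood apart: a chi-square of its counts against each of the other WT striatal libraries, divided by the degrees of freedom, was 28.6 and 28.2, against 6.79 between those 2.

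Without the knockout, most of these genes were higher in striatum than in cerebellum. On CPM per kilobase of exon, scaled over all 14 libraries, Mbp was the most abundant member in both tissues. It stood at 484 ± 35.7 in WT striatum (SD, n = 3) and 307 ± 15.4 in WT cerebellum (SD, n = 4), with no overlap between the tissues. In striatum Mal, Trf, Plekhb1, Cnp and Cldn11 followed, with means between 119 and 170.1, and their ranges over libraries overlapped with those of their neighbours in that order. In cerebellum Trf (170.1 ± 14.9) and Enpp2 (158 ± 91.1) came next, and Mal was at 56.7 ± 3.49. The least abundant member was Tmem125 in striatum, at 3.97 ± 0.737, and Opalin in cerebellum, at 3.34 ± 0.310.

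**Figure D1:**
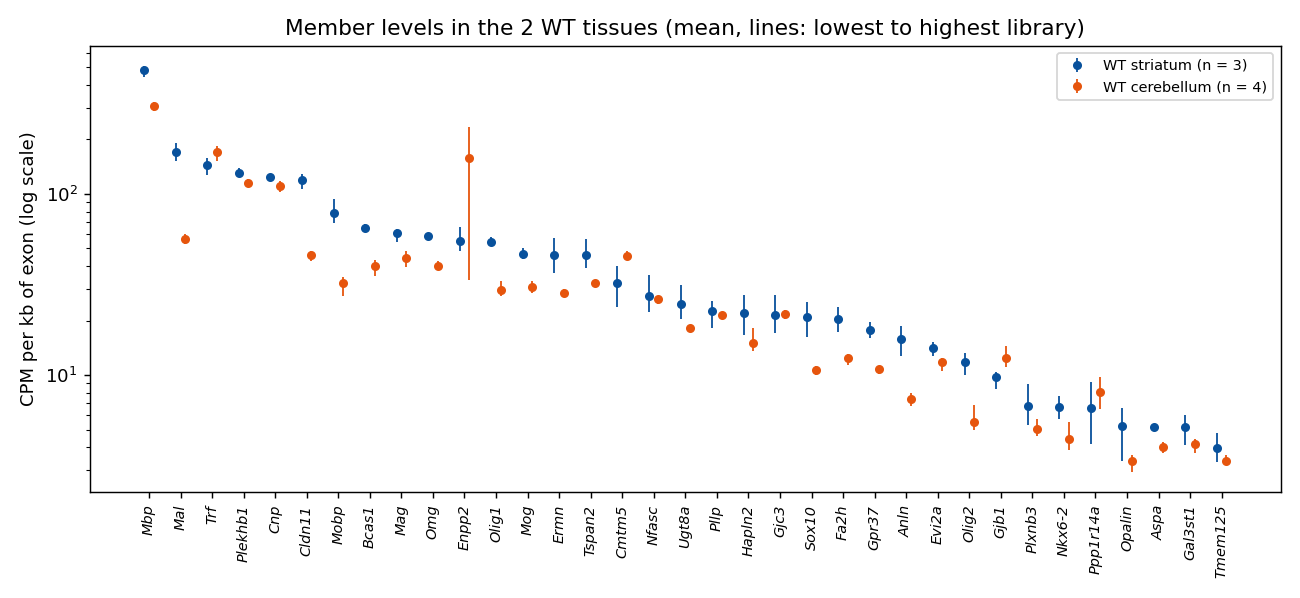
Mean level of each of the 35 genes in WT striatum (n = 3) and WT cerebellum (n = 4), in CPM per kilobase of exon on a log scale, with lines from the lowest to the highest library. Mbp is highest in both tissues, Mal lies well above its cerebellar level in striatum, and the cerebellar libraries spread widely for Enpp2.

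Between the WT tissues, 23 of the 35 genes were higher in striatum and 3 were lower (edgeR's quasi-likelihood test, adjusted p under 0.05, as for every call below). Of all 15031 genes tested, 31.5% were higher in striatum and 32.7% were lower. The members' median log2 difference was 0.52, against −0.03 over all genes tested. Mal, a proteolipid of compact myelin, differed most. Scaled over all 14 libraries, it stood at 531, 422 and 465 CPM in WT striatum and at 146, 165, 166.5 and 153 CPM in WT cerebellum, a log2 difference of 1.59 (SE 0.0934, adjusted p = 3.12e-07). Cldn11, the tight junction protein of myelin, was higher in striatum by 1.38, Mobp by 1.28 and Anln by 1.11 on the log2 scale. All 4 transcription factors were higher there, Olig2 by 1.10, Sox10 by 0.98, Olig1 by 0.88 and Nkx6-2 by 0.59. The 3 lower members were Enpp2 at −1.51 (SE 0.563, adjusted p = 0.0441), Cmtm5 at −0.49 and the gap junction gene Gjb1 at −0.35. Scaled over all 14 libraries, Enpp2 ran from 192.7 to 1357 CPM in WT cerebellum, around the 280 to 380 CPM of WT striatum. Neither limma-voom nor the model with sex as a covariate called Enpp2. The other gap junction gene, Gjc3, had a log2 difference of 0.00 (SE 0.148, adjusted p = 0.996). Without replicate 1 of WT striatum, 25 members were higher in striatum and 5 lower, with a median of 0.35. Tissue cannot be told apart from any batch that coincides with it.

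Stretches upstream of 4 genes are shown because these are the genes called in both tissues that have a RefSeq promoter window (GRCm38.p6) free of annotated exons. Each run is the 250 bases before the gene's start, 5′ to 3′ on the gene's strand. Capitals mark a match on either strand to TNNNGGCA, the core of the DNA motif recognised by THAP1. The windows are chr2:127656696-127656945 (minus strand) for Mal, chr2:58052865-58053114 (minus) for Ermn, chr9:22389207-22389456 (minus) for Anln and chr3:31149670-31149919 (plus) for Cldn11.
Mal: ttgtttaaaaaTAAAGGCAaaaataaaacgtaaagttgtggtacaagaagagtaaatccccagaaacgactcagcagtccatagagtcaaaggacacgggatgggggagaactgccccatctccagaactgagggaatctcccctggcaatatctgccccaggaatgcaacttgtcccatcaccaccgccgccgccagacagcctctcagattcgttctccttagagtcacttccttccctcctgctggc
Ermn: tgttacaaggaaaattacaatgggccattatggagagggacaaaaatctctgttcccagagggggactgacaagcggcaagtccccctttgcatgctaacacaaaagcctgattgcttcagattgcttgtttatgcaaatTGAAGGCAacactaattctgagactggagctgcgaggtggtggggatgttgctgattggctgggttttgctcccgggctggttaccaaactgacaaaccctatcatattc
Anln: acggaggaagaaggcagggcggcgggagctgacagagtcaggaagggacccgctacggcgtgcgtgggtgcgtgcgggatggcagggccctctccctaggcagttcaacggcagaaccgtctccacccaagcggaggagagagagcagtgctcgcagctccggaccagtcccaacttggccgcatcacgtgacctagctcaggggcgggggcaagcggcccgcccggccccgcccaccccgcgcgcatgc
Cldn11: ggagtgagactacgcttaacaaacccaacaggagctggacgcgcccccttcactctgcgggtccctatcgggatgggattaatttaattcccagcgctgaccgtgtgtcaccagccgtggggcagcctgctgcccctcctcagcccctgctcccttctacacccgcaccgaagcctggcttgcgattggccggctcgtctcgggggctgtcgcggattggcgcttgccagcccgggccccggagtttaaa
Mal held 1 match, which begins at position −239 from the start, and Ermn held 1, at position −110. Anln and Cldn11 held none within these letters.

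RefSeq windows of 300 bases, which run from 250 before to 50 after a start, were found for 26 of the 35 genes, 37 windows in all. TNNNGGCA lay on either strand in 54.1% of the members' windows and in 42.0% of all 32841 windows. The same search found AAGATGG, the core of the YY1 motif, in 16.2% of the members' windows against 6.34% of all. CTGGCAC, the core of the motif of the myelin regulator MYRF, was in 16.2% against 5.01%, and can overlap TNNNGGCA. AACAAAG, a SOX motif, was in 5.41% against 5.85%. These shares rest on 20, 6, 6 and 2 of the 37 windows, and several genes have more than 1 window. Binding was not measured, and a match is only a run of letters.

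In cKO striatum every one of the 35 genes had a negative log2 fold change, and 10 fell. These were Mal, Mobp, Tspan2 and Cldn11 of compact myelin, Ermn and Anln of the myelin cytoskeleton, the lipid enzyme Fa2h, and Gpr37, Bcas1 and Evi2a. Of all 14080 genes tested, 0.320% were called lower. The members' median log2 fold change was −0.63, against 0.00 over all genes tested, and the range ran from −1.08 for Mal to −0.03 for Omg. In 26 members every cKO library lay below every WT library, as did 8.20% of all genes. Bulk tissue cannot tell fewer oligodendrocytes from less of these RNAs per oligodendrocyte. The number of calls rested on few libraries. Leaving out WT replicate 1, 2 or 3 gave 14, 10 and 1 calls, leaving out cKO replicate 2 gave 3, and leaving out cKO replicate 1 or 3 gave 0. In the same order, 0.667%, 0.281%, 0.0631%, 0.0632%, 0.00703% and 0.00702% of all genes tested were called lower, so calls changed over all genes too. In the fits without cKO replicate 1 or 3 edgeR gave 25 and 24 members an unadjusted p under 0.05. Over all samples DESeq2 and limma-voom each called 21 members, and called 0.544% and 1.09% of all genes lower.

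In cKO cerebellum 31 of the 35 genes had a negative log2 fold change and 11 fell. The 11 were Mal, Cldn11 and Mbp of compact myelin, Mog, Opalin, Ermn and Anln, the lipid enzyme Fa2h, and Gpr37, Evi2a and Ppp1r14a. Of all 14775 genes tested, 4.96% were called lower. The members' median was −0.14, against 0.00 over all genes tested, with a range from −0.39 for Fa2h to 0.30 for Enpp2. In 10 members every cKO library lay below every WT library, as did 7.96% of all genes. None of the 35 rose (edgeR; 0 also with DESeq2 and limma-voom, and 18 had an unadjusted p under 0.05 in either direction), while 2.63% of all genes were called higher. Without cKO replicate 2, 7 members were called, and 2 were called in a model of all 14 libraries. The share of all genes called lower fell as well, to 3.43% and 1.16%. Mal, Cldn11, Ermn, Anln, Fa2h, Gpr37 and Evi2a were called in both tissues, which is 70% of the members' striatal and 63.6% of their cerebellar calls. The same shares over all genes were not computed, so whether this overlap is particular to the members is not known.

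**Figure D2:**
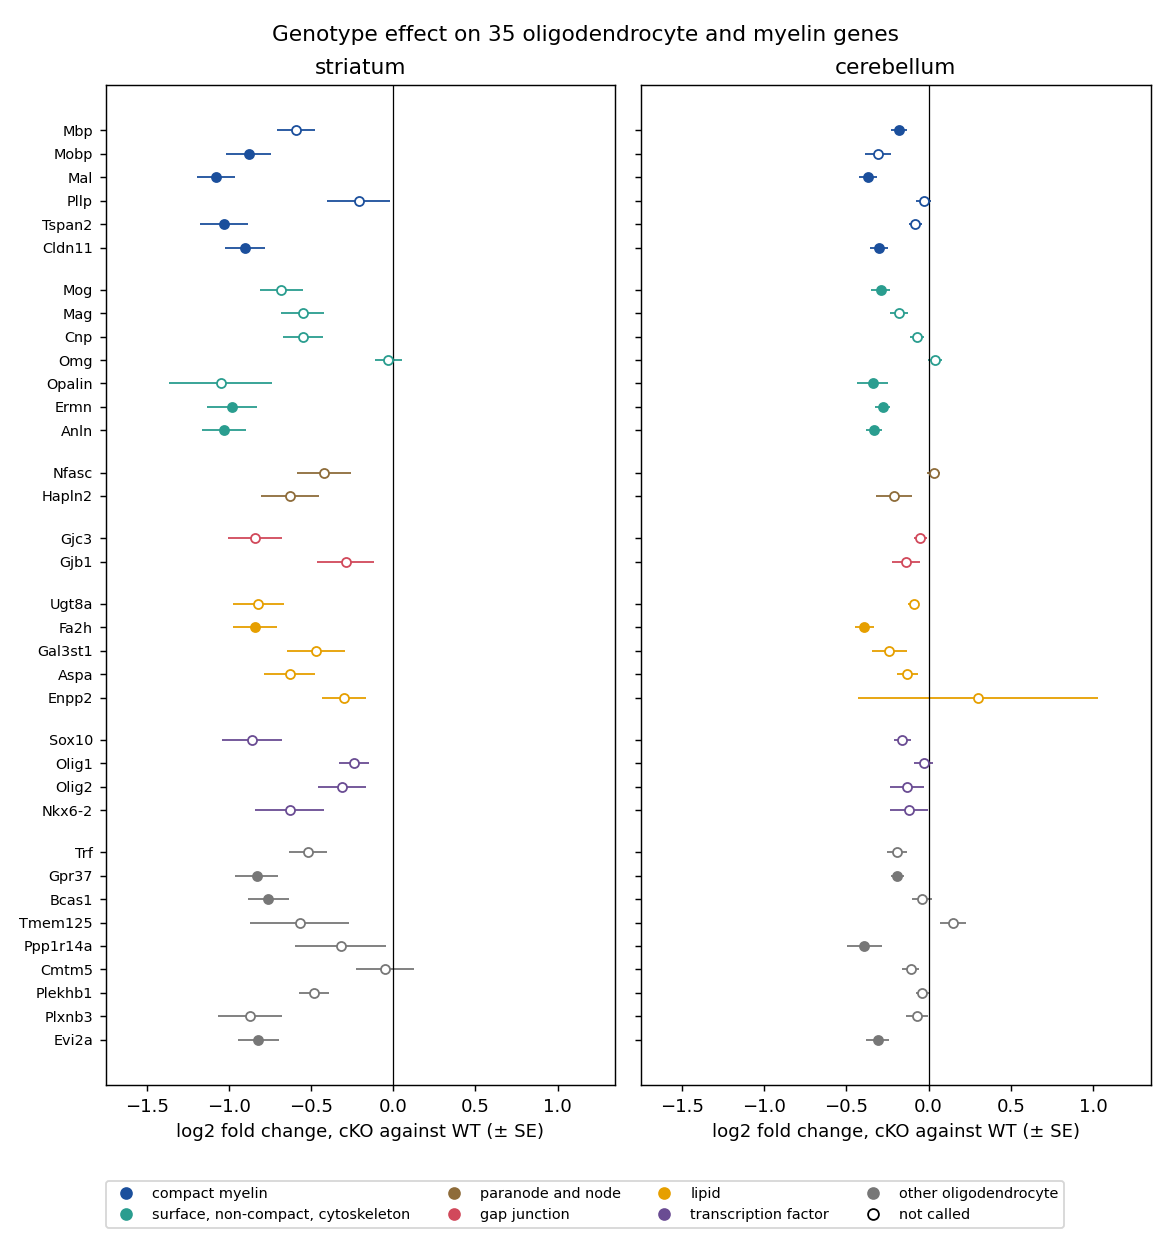
Log2 fold change of cKO against WT for each gene, grouped by role, with its standard error, in striatum (left) and cerebellum (right); filled points are called and open points are not. In striatum all points lie below 0, with a median of −0.63, and in cerebellum most lie closer to 0, with a median of −0.14 and a wide error for Enpp2.

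The compact myelin genes had a median of −0.89 in striatum, where 4 of 6 fell, and of −0.24 in cerebellum, where 3 of 6 fell. Mal (chromosome 2, 127633226 to 127656695, mm10) stood at 501, 396 and 436 CPM in WT striatum and at 208, 232 and 190.1 CPM in cKO striatum. It fell to 47.3% of WT (log2 fold change −1.08, SE 0.116, adjusted p = 0.00823). The lowest WT library lay well above the highest cKO library. In cerebellum Mal stood at 153, 172, 173 and 160.0 CPM in WT and at 133, 118, 122 and 138 CPM in cKO, again without overlap. It fell there to 77.5% of WT (log2 fold change −0.37, SE 0.0548, adjusted p = 0.00162). With 1 library left out, cerebellar Mal was called in 8 of 8 fits and striatal Mal in 4 of 6, with an adjusted p of up to 0.108.

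Cldn11 (chromosome 3, 31149920 to 31164324), whose claudin seals the spaces between myelin layers, was the other compact myelin gene called in both tissues. Its striatal libraries held 228, 187 and 212 CPM in WT and 103, 130.2 and 103 CPM in cKO (log2 fold change −0.90, SE 0.122, adjusted p = 0.0256). Its cerebellar libraries held 83.6, 84.8, 94.7 and 94.2 CPM in WT and 72.7, 68.9, 69.5 and 80.0 CPM in cKO (log2 fold change −0.30, adjusted p = 0.00422). Neither tissue showed any overlap.

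Tspan2 (chromosome 3, 102734529 to 102801513), a tetraspanin of the myelin membrane, fell in striatum. Levels there were 252, 174 and 190.2 CPM in WT and 96.3, 114 and 91.1 CPM in cKO, which is 48.9% of WT (log2 fold change −1.03, SE 0.148, adjusted p = 0.0335). In cerebellum they were 153, 153, 166 and 166 CPM in WT and 154, 148, 147 and 156 CPM in cKO, and the genotypes overlapped (log2 fold change −0.08, adjusted p = 0.227). Mobp (chromosome 9, 120149707 to 120181484), which encodes a small basic protein of compact myelin, stood at 603, 443 and 465 CPM in WT striatum and at 259.9, 312 and 252 CPM in cKO striatum (log2 fold change −0.88, adjusted p = 0.0431). Its cerebellar levels were 194, 244, 249.5 and 237 CPM in WT and 195, 176, 179.5 and 195 CPM in cKO. Only WT replicate 1 reached down to the cKO libraries, and the adjusted p of 0.0503 lay just past the threshold.

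Mbp encodes myelin basic protein, which holds the cytoplasmic faces of the membrane together. It stood at 4052, 3523 and 3973 CPM in WT striatum and at 2421, 2923 and 2325 CPM in cKO striatum. The groups did not overlap, and the log2 fold change of −0.59 did not pass (SE 0.116, adjusted p = 0.103). In cerebellum Mbp fell from 2549, 2813, 2829 and 2668 CPM in WT to 2367, 2203, 2596 and 2395 CPM in cKO (log2 fold change −0.18, SE 0.0489, adjusted p = 0.0310), although cKO replicate 3 lay above WT replicate 1. That call held in 2 of the 8 fits with 1 library left out. Pllp, which encodes plasmolipin, was the compact myelin gene with the smallest difference in both tissues, at −0.21 (adjusted p = 0.811) and −0.03 (adjusted p = 0.751). An antisense gene covers 54.2% of its exons and the strand setting of the counting is not given, so its counts are uncertain.

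The surface, non-compact and cytoskeletal genes had a median of −0.68 in striatum, where 2 of 7 fell, and of −0.28 in cerebellum, where 4 of 7 fell. Anln (chromosome 9, 22332012 to 22389188) encodes the actin-binding protein anillin, known from cell division and also part of the septin scaffold of myelin. It stood at 160.3, 109 and 133 CPM in WT striatum and at 63.9, 65.8 and 67.1 CPM in cKO striatum (log2 fold change −1.03, SE 0.134, adjusted p = 0.0218). Its cerebellar levels were 64.2, 75.5, 68.5 and 69.2 CPM in WT and 56.1, 52.9, 54.3 and 57.5 CPM in cKO (log2 fold change −0.33, SE 0.0493, adjusted p = 0.000475). The cKO libraries were close together and below every WT library in both tissues.

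Ermn (chromosome 2, 58045113 to 58052864) encodes ermin, a cytoskeletal protein specific to oligodendrocytes. Levels were 196, 125 and 150.4 CPM in WT striatum and 77.7, 82.5 and 78.4 CPM in cKO striatum (log2 fold change −0.98, SE 0.15, adjusted p = 0.0429). In cerebellum they were 103, 112, 113 and 104 CPM in WT and 85.3, 83.1, 94.0 and 92.0 CPM in cKO (log2 fold change −0.28, adjusted p = 0.00105). WT replicate 1 of striatum held the most Ermn and Anln of the striatal libraries, and for Ermn too no cKO library reached the WT range.

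Mog (chromosome 17, 37010743 to 37023398), a glycoprotein on the outermost surface of myelin, fell in cerebellum. There it stood at 50.2, 54.8, 58.6 and 53.1 CPM in WT and at 46.1, 41.3, 41.6 and 47.8 CPM in cKO (log2 fold change −0.29, SE 0.0578, adjusted p = 0.00484). In striatum it stood at 70.5, 73.3 and 80.6 CPM in WT and at 41.4, 55.9 and 42.5 CPM in cKO (log2 fold change −0.68, SE 0.130, adjusted p = 0.0908). The genotypes were apart in both tissues, and the larger striatal difference missed the threshold.

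Opalin (chromosome 19, 41061710 to 41077113), a transmembrane protein of late oligodendrocytes, also fell in cerebellum, from 8.997, 10.2, 10.7 and 11.2 CPM in WT to 8.24, 7.45, 7.55 and 9.27 CPM in cKO (log2 fold change −0.34, adjusted p = 0.0394), with cKO replicate 4 above WT replicate 1. Its striatal levels were 9.37, 18.2 and 15.8 CPM in WT and 5.04, 10.3 and 5.65 CPM in cKO. That log2 fold change, −1.05 (SE 0.314, adjusted p = 0.414), was close to that of Anln but had a larger error, with WT replicate 1 below cKO replicate 2. Mag, an adhesion protein that faces the axon, and Cnp, an enzyme of the non-compact cytoplasm, each had a striatal log2 fold change of −0.55, without overlap (adjusted p = 0.204 and 0.159). In cerebellum they were at −0.18 and −0.07, and the genotypes overlapped. Omg, which encodes an oligodendrocyte and neuronal glycoprotein that inhibits neurite growth, showed the smallest striatal difference, with 119 to 125 CPM in WT and 112 to 126 CPM in cKO.

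The paranode and node genes had a median of −0.53 in striatum and −0.09 in cerebellum. Nfasc encodes neurofascin, of which the glial form anchors the paranodal loops and the neuronal form sits at the node, and the counts do not separate them. It ran from 296 to 476 CPM in WT and from 266 to 276 CPM in cKO striatum (log2 fold change −0.42, SE 0.163, adjusted p = 0.628), and from 366 to 404.5 CPM and 379.8 to 420.1 CPM in cerebellum (0.03). Hapln2, a link protein of the matrix around the node, ran from 37.0 to 62.2 CPM in WT and from 29.9 to 35.01 CPM in cKO striatum (log2 fold change −0.63, SE 0.176, adjusted p = 0.358). In cerebellum it was at −0.21 (adjusted p = 0.303). Neither gene was called in either tissue by edgeR, DESeq2 or limma-voom, and both had an unadjusted p under 0.05 in striatum and neither in cerebellum.

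The gap junction genes Gjc3 and Gjb1 encode connexins that couple oligodendrocytes and the layers of myelin. Their medians were −0.57 in striatum and −0.09 in cerebellum. Gjc3 ran from 69.6 to 113 CPM in WT and from 46.3 to 52.1 CPM in cKO striatum (log2 fold change −0.84, SE 0.166, adjusted p = 0.103). It was the larger of the 2 differences, since Gjb1 was at −0.29 (SE 0.174, adjusted p = 0.764), with overlapping genotypes. In cerebellum the log2 fold changes were −0.05 and −0.14. Neither was called by edgeR in either tissue. DESeq2 and limma-voom each called 1 of the 2 in striatum and 0 in cerebellum, where 0 had an unadjusted p under 0.05, against 1 in striatum.

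The lipid genes had a median of −0.63 in striatum and −0.13 in cerebellum, and Fa2h fell in both. FA2H adds the hydroxyl group of the hydroxylated galactolipids of myelin. Fa2h (chromosome 8, 111345135 to 111393824) stood at 67.4, 48.8 and 56.7 CPM in WT striatum and at 29.4, 34.2 and 32.9 CPM in cKO striatum (log2 fold change −0.84, SE 0.133, adjusted p = 0.0431). In cerebellum it stood at 35.5, 41.2, 38.2 and 40.2 CPM in WT and at 30.3, 27.3, 30.7 and 30.1 CPM in cKO (log2 fold change −0.39, SE 0.0556, adjusted p = 0.000300). No cKO library reached the WT range in either tissue, and the cerebellar call held in 8 of 8 fits with 1 library left out.

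Ugt8a and Gal3st1 encode the enzymes that make galactosylceramide and its sulphated form, sulfatide. Ugt8a ran from 87.1 to 134 CPM in WT and from 57.9 to 63.3 CPM in cKO striatum (log2 fold change −0.82, SE 0.153, adjusted p = 0.0800). It ran from 85.4 to 88.8 CPM in WT and from 78.9 to 82.6 CPM in cKO cerebellum, also without overlap (−0.09, adjusted p = 0.138). Gal3st1 was at −0.47 in striatum (adjusted p = 0.614) and −0.24 in cerebellum (adjusted p = 0.190). Aspa, whose enzyme releases acetate from N-acetylaspartate for lipid synthesis, was at −0.63 (adjusted p = 0.240) and −0.13 (adjusted p = 0.259).

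Enpp2 was the lipid gene with a positive cerebellar value. It encodes autotaxin, a secreted enzyme made by oligodendrocytes and, at high levels, by the epithelium of the choroid plexus. It stood at 1304, 891, 201 and 1421 CPM in WT and at 1897, 507, 1695 and 598 CPM in cKO cerebellum, with wide overlap (log2 fold change 0.30, SE 0.733, adjusted p = 0.865). Ttr, the defining transcript of choroid plexus epithelium, stood in the same libraries at 2060, 1231, 13.4 and 2018 CPM in WT and at 3393, 685, 3153 and 763 CPM in cKO. The libraries high in Ttr were those high in Enpp2, and only WT replicates 1 and 4 traded places in that order. The sum of 7 choroid plexus markers ran from 40.4 to 2222 CPM in WT and from 752 to 3641 CPM in cKO cerebellum, with none of the 7 called (edgeR, DESeq2 and limma-voom, 0 at an unadjusted p under 0.05) and none at 0 in every library of a group. Their part in the Enpp2 values was not tested. In striatum Enpp2 stood at 359, 263 and 279.7 CPM in WT and at 270.1, 214 and 248 CPM in cKO (log2 fold change −0.30, adjusted p = 0.697).

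**Figure D3:**
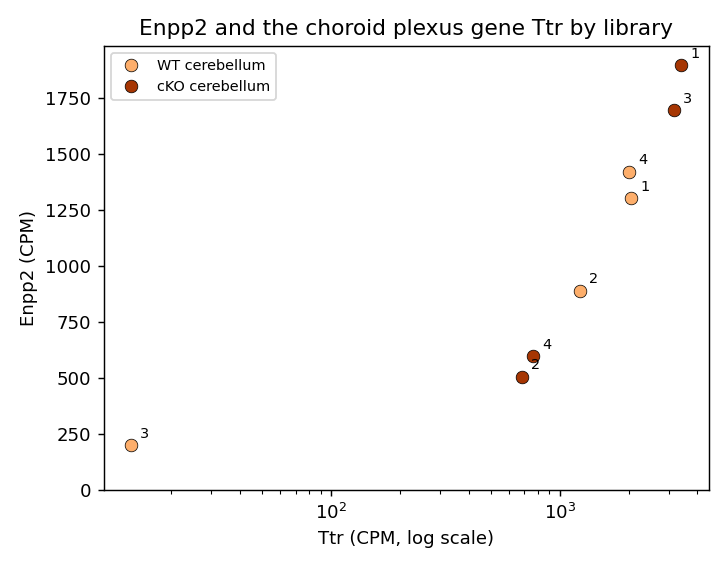
Enpp2 against Ttr in each cerebellar library, in CPM, with Ttr on a log scale; numbers are replicates and colours are genotypes. Both genes are lowest in WT replicate 3, at 201 and 13.4 CPM, and highest in cKO replicate 1, at 1897 and 3393 CPM.

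The transcription factor genes had a median of −0.47 in striatum and −0.13 in cerebellum, and none of the 4 was called by edgeR in either tissue. In striatum 3 of the 4 had an unadjusted p under 0.05, DESeq2 called 1 and limma-voom 0. In cerebellum 1 had an unadjusted p under 0.05, and DESeq2 and limma-voom called 0. Sox10 (chromosome 15, 79154908 to 79165240) stood at 73.2, 46.7 and 59.1 CPM in WT striatum and at 26.6, 38.2 and 34.2 CPM in cKO striatum (log2 fold change −0.86, SE 0.183, adjusted p = 0.143). Its cerebellar levels were 32.0, 35.7, 34.6 and 33.0 CPM in WT and 31.2, 29.5, 31.1 and 29.2 CPM in cKO (log2 fold change −0.16, SE 0.0503, adjusted p = 0.0617). The cKO libraries lay below the WT libraries in both tissues.

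Olig1 and Olig2, which are expressed by precursors as well as by mature cells, had smaller striatal differences than Sox10. Olig1 (chromosome 16, 91269772 to 91271933) stood at 105, 108 and 117 CPM in WT and at 88.5, 101 and 90.3 CPM in cKO striatum (log2 fold change −0.24, SE 0.0908, adjusted p = 0.627), without overlap. In cerebellum it stood at 61.4, 75.0, 61.9 and 68.4 CPM in WT and at 66.0, 68.3, 65.1 and 62.4 CPM in cKO, and the cKO libraries lay within the WT range (−0.03, adjusted p = 0.839). Olig2 (chromosome 16, 91225457 to 91228677) stood at 29.2, 23.8 and 31.3 CPM in WT and at 23.8, 19.2 and 25.2 CPM in cKO striatum (log2 fold change −0.31, SE 0.146, adjusted p = 0.725). Its cerebellar levels were 13.1, 18.1, 13.3 and 13.99 CPM in WT and 14.4, 11.8, 13.0 and 14.2 CPM in cKO (−0.13, adjusted p = 0.504), and the genotypes overlapped in both tissues. Nkx6-2, a homeodomain factor of oligodendrocyte maturation, was at −0.63 in striatum (adjusted p = 0.5) and −0.12 in cerebellum (adjusted p = 0.575). Whether the differences of these 4 genes differ from each other was not tested.

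The other 9 oligodendrocyte genes had a median of −0.57 in striatum and −0.11 in cerebellum, and 3 fell in each. Gpr37 (chromosome 6, 25665878 to 25690729), an orphan receptor of differentiating oligodendrocytes, stood at 113, 91.2 and 98.9 CPM in WT striatum and at 49.7, 66.8 and 53.2 CPM in cKO striatum (log2 fold change −0.83, SE 0.131, adjusted p = 0.0431). In cerebellum it stood at 64.2, 71.2, 68.9 and 69.7 CPM in WT and at 60.6, 58.7, 60.0 and 61.5 CPM in cKO (log2 fold change −0.19, adjusted p = 0.0104). The cKO libraries lay below every WT library in both tissues.

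Evi2a (chromosome 11, 79526560 to 79530609), a membrane protein gene that sits within an intron of Nf1, stood at 31.0, 27.5 and 32.8 CPM in WT striatum and at 15.5, 19.1 and 17.0 CPM in cKO striatum (log2 fold change −0.82, adjusted p = 0.0416). Its cerebellar levels were 29.5, 29.6, 28.5 and 25.3 CPM in WT and 24.3, 21.1, 20.8 and 24.9 CPM in cKO (log2 fold change −0.31, adjusted p = 0.0139). The groups did not overlap, although an annotated neighbour shares 19.2% of its exons and its counts are uncertain to that extent.

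Bcas1 (chromosome 2, 170346991 to 170427845), which marks newly formed myelinating cells and stays on in myelin, fell in striatum. It stood there at 242, 218 and 232 CPM in WT and at 123, 164 and 121 CPM in cKO (log2 fold change −0.76, SE 0.126, adjusted p = 0.0494). In cerebellum it stood at 139.5, 164, 169 and 156 CPM in WT and at 155, 141, 164 and 150.4 CPM in cKO (−0.04, adjusted p = 0.752), and the cKO libraries lay within the WT range. Antisense genes cover 12.6% of its exons. Ppp1r14a (chromosome 7, 29289308 to 29293801), an inhibitor of myosin phosphatase, fell in cerebellum, from 9.25, 13.9, 11.8 and 11.4 CPM in WT to 8.73, 8.23, 8.96 and 9.41 CPM in cKO (log2 fold change −0.39, SE 0.105, adjusted p = 0.0329), although cKO replicate 4 lay above WT replicate 1. Its striatal levels were 5.38, 8.22 and 11.7 CPM in WT and 5.52, 8.18 and 6.59 CPM in cKO, all within the WT range (−0.32, adjusted p = 0.8).

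Among the remaining members, the semaphorin receptor gene Plxnb3 (−0.87), Trf (−0.52) and Plekhb1 (−0.48) were lower in striatum without overlap between genotypes, with adjusted p of 0.164, 0.167 and 0.0892. Trf encodes transferrin, the iron carrier that oligodendrocytes make. A gene on the same strand covers 63.5% of its exons, so its counts are uncertain. Tmem125 was at −0.57 in striatum and 0.15 in cerebellum, and Cmtm5 at −0.05 and −0.11, all with overlapping genotypes. Together with Enpp2, Omg and Nfasc, Tmem125 made up the 4 members with a positive cerebellar value.

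**Figure D4:**
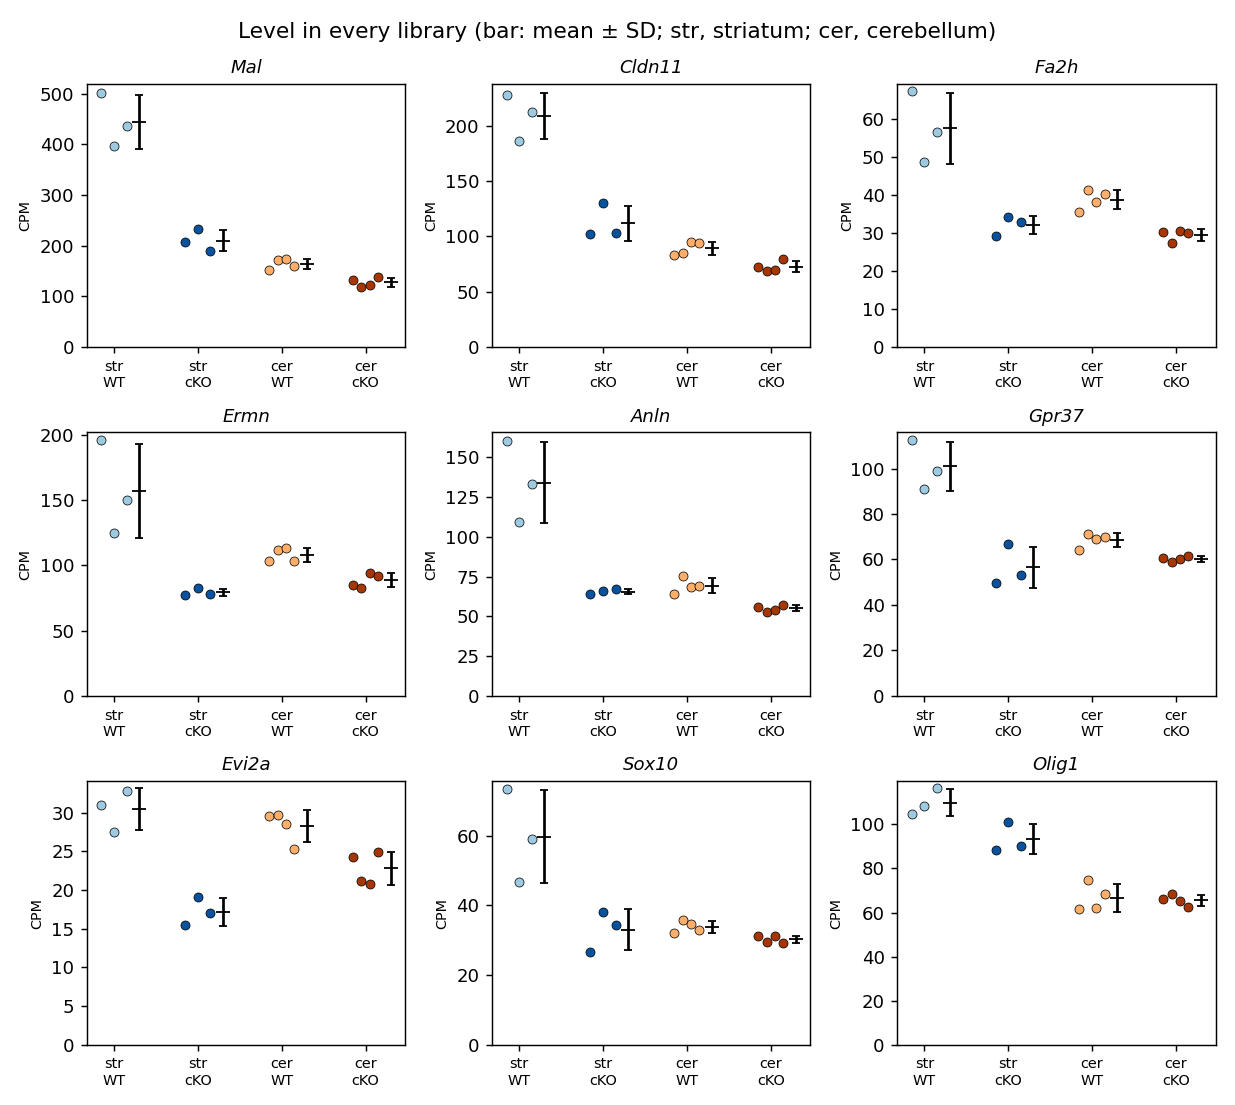
Level of 9 of the genes in every library, in CPM scaled within a tissue, with bars for the mean ± SD of each group. The 7 genes called in both tissues separate the genotypes in striatum, with Mal at 396 to 501 against 190.1 to 232 CPM, and the cerebellar groups lie closer together; Olig1 shows the smallest separation.

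The striatal libraries did not differ equally from WT. The mean log2 difference from the WT mean over the 35 genes was 0.09, −0.14 and 0.05 in the WT libraries and −0.74, −0.44 and −0.68 in the cKO libraries. The cKO library with the smallest decrease, replicate 2, also held the most Thap1 of that group, 7.65 CPM. Replicates 1 and 3 did not follow that order, since replicate 3 held less Thap1 (3.77 against 5.25 CPM) but had the smaller decrease. Whether the 2 go together was not tested. Replicate 2 held Ttr at 16.1 CPM, against 137 and 131 CPM in cKO replicates 1 and 3 and 16.7, 0.667 and 9.66 CPM in WT. The choroid plexus markers together ran from 35.9 to 52.9 CPM in WT and from 48.6 to 191 CPM in cKO striatum. Of the 7, 5 could be tested, none was called (edgeR; 1 had an unadjusted p under 0.05, and DESeq2 and limma-voom called 0), and none was at 0 in every library of a group. Their part in the striatal result was not tested. In cerebellum the same mean ran from −0.07 to 0.09 in WT and from −0.24 to −0.09 in cKO, so that WT replicate 1 and cKO replicate 1 were near each other. Without Enpp2 it ran from −0.09 to 0.09 in WT and from −0.23 to −0.13 in cKO, with those 2 libraries at −0.09 and −0.13.

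The striatal and cerebellar effects were then compared with each other by a genotype by tissue interaction, in which the striatal value was subtracted from the cerebellar one. Whether striatal and cerebellar libraries come from the same mice is not stated. This test, like that between the WT tissues, treated them as unpaired. Of the 35 genes, 33 had a positive value, so that the cerebellar fold change lay above the striatal one, with a median of 0.49 against −0.02 over all genes. The test called 7, all positive, while 0.240% of all 15401 genes were called positive. Tspan2 had the largest value at 0.94 (SE 0.143, adjusted p = 0.00861). Among those called, Ugt8a followed at 0.72 (adjusted p = 0.0456), then Bcas1 and Mal at 0.70 each (0.0376 and 0.0229), Anln at 0.68 (0.0402), Gpr37 at 0.63 (0.0402) and Plekhb1 at 0.42 (0.0465). For Mal, Anln and Gpr37 both tissues showed a decrease and the striatal one was larger. Mbp (0.39, adjusted p = 0.205), Fa2h (0.44, 0.213) and Sox10 (0.68, 0.137) did not pass. Neither did the 4 paranode, node and gap junction genes, of which Gjc3 came closest (0.78, adjusted p = 0.0528).

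In most fits with 1 library left out, most of these interaction calls did not hold. Leaving out any 1 of the 8 cerebellar libraries left 1 or 2 calls, and leaving out striatal cKO replicate 1 or 3 left 1. In the 8 cerebellar fits the calls over all genes went from 60 to between 19 and 28. The members' median there stayed at 0.44 to 0.52, and edgeR gave 22 to 26 members an unadjusted p under 0.05. Without striatal WT replicate 3 there were 3, without WT replicate 1 there were 8, without cKO replicate 2 there were 10 and without WT replicate 2 there were 13. Tspan2 was called in 14 of 14 such fits, with an adjusted p of up to 0.0463. Mal was called in 8 of 14. Across the 35 genes, the striatal and cerebellar log2 fold changes had a Pearson correlation of 0.50 and a Spearman correlation of 0.52. The genes share their libraries and are not independent, so no test was made.

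**Figure D5:**
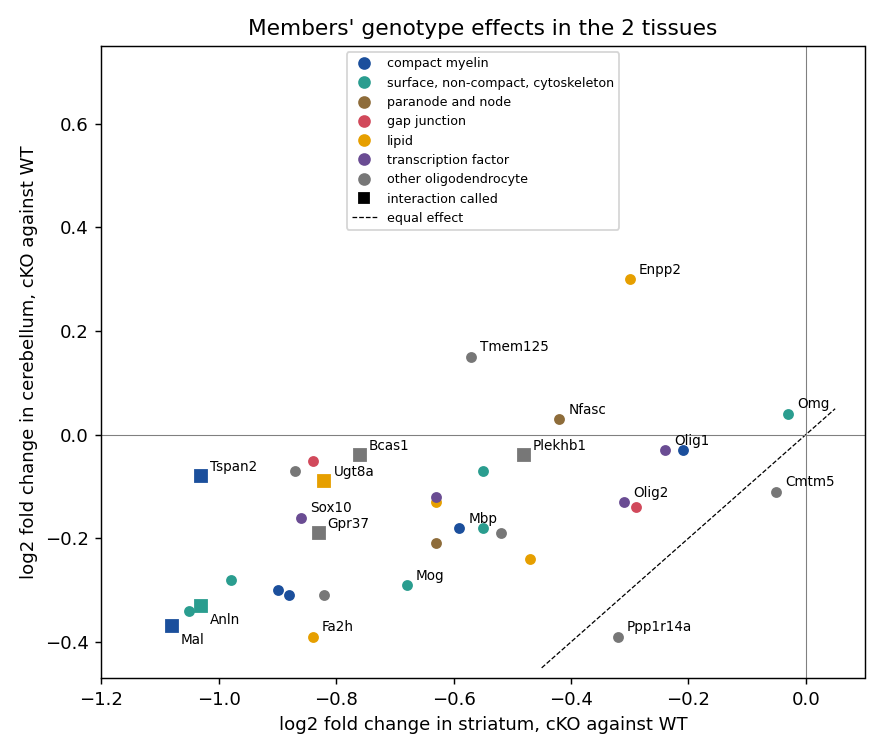
Cerebellar against striatal log2 fold change of each gene, cKO against WT, coloured by role; squares mark the 7 genes with a called interaction and the dashed line marks equal effects. Nearly all genes lie above the line, with Tspan2 at −1.03 in striatum and −0.08 in cerebellum, and Cmtm5 and Ppp1r14a are the 2 below it.

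A further 62 genes of myelin and its axonal partners, taken from a separate list, had pooled medians closer to 0. In striatum 3 fell and 53 had a negative value, with a median of −0.33, while 0.320% of all genes were called lower. By kind, the striatal median ran from −0.59 in 27 further oligodendrocyte genes, near the members' −0.63, to −0.11 in 10 axonal partners. Gatm, an enzyme of creatine synthesis that is abundant in oligodendrocytes, fell from 247, 184 and 216 CPM in WT to 116, 133 and 123 CPM in cKO (log2 fold change −0.80, SE 0.118, adjusted p = 0.0388). Tmem63a, a mechanosensitive channel of oligodendrocytes, fell by 0.83 and Cryab, a small heat shock protein, by 0.70 on the log2 scale (adjusted p = 0.0468 and 0.0416). Cryab shares 17.0% of its exons with an antisense gene. In cerebellum 5 of the 62 fell and 1 rose, with a median of −0.06. Of all genes, 4.96% were called lower there and 2.63% higher, so these counts lay near the shares over all genes. Cntn2, an adhesion protein beside the paranode, fell by 0.26, Tmem63a by 0.29 and Gamt, which completes creatine synthesis, by 0.45 on the log2 scale (adjusted p = 0.000420, 0.00252 and 0.0177). Galc, the lysosomal enzyme that breaks down galactosylceramide, rose by 0.33 on the log2 scale (adjusted p = 0.000111), with WT at 38.7 ± 1.55 and cKO at 48.8 ± 0.122 CPM (SD, n = 4).

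Myrf, the factor that drives late oligodendrocyte maturation, is listed in the files under the earlier symbol Gm98. It stood at 171, 94.3 and 109 CPM in WT striatum and at 58.9, 77.1 and 62.6 CPM in cKO striatum (log2 fold change −0.91, SE 0.209, adjusted p = 0.173). In cerebellum it stood at 52.5, 59.5, 61.6 and 60.2 CPM in WT and at 53.2, 49.5, 52.4 and 51.2 CPM in cKO, and fell by 0.18 on the log2 scale (adjusted p = 0.0371). The genotypes were apart in striatum, and in cerebellum WT replicate 1 lay within the cKO range. It was named beyond the 3 genes per direction that the naming rule takes, after its value was seen. The interaction called 4 of the 62, all positive, namely Gatm, Cryab, Il33 and Lass2, the earlier symbol of the ceramide synthase Cers2. Of all genes, 0.240% were called positive.

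A list of 10 oligodendrocyte precursor markers had medians near 0. Of 10 in striatum edgeR called 0, as did DESeq2 and limma-voom, with 1 at an unadjusted p under 0.05 and a median of −0.03. Their sum ran from 670.4 to 853 CPM in WT and from 696 to 705 CPM in cKO striatum. In cerebellum the median was 0.11, and 1 rose, the growth factor receptor Pdgfra, with WT at 28.0 ± 1.18 and cKO at 33.7 ± 2.57 CPM (SD, n = 4) and a log2 fold change of 0.26 (adjusted p = 0.00982). A second list held 6 markers of committed precursors, among them the members Bcas1 and Nfasc. Its striatal median was −0.25, 5 of the 6 were negative, and edgeR called 1, Bcas1. Their sum ran from 686 to 906 CPM in WT and from 559 to 614 CPM in cKO striatum. In cerebellum it ran from 683 to 747 CPM in WT and from 696 to 760 CPM in cKO. Whether the precursor markers differ from the mature genes was not tested.

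Markers of other cell types were read in the same libraries. Of 12 astrocyte markers edgeR called 0 in striatum, where the median was 0.07, 2 had an unadjusted p under 0.05, and DESeq2 called 2 and limma-voom 1. In cerebellum 3 rose and 2 fell, with a median of −0.04, against 2.63% of all genes called higher and 4.96% lower. Gfap, the intermediate filament of reactive astrocytes, rose from 190 ± 13.3 to 334 ± 26.1 CPM in cerebellum (log2 fold change 0.81, adjusted p = 1.6e-05). In striatum it was at 40.0 to 75.7 CPM in WT and 138 to 249.7 CPM in cKO (log2 fold change 1.58, adjusted p = 0.0593). Of 12 microglial markers edgeR and DESeq2 called 0 in either tissue and limma-voom 0 in striatum and 1 in cerebellum, with 0 and 3 at an unadjusted p under 0.05 and medians of 0.04 and 0.10. Of 9 endothelial and 6 ependymal markers, edgeR, DESeq2 and limma-voom called 0 in striatum, with 0 at an unadjusted p under 0.05. The endothelial median there was −0.32, with sums of 240.3 to 311 CPM in WT and 232 to 260.5 CPM in cKO, and the ependymal median was 0.46, with sums of 24.2 to 49.7 and 45.9 to 58.5 CPM. Their part in the striatal result was not tested. The 10 general neuronal markers summed to 4908 to 5136 CPM in WT and 5025 to 5138 CPM in cKO striatum, and to 5816 to 6256 and 5923 to 6195 CPM in cerebellum.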

How the data were processed

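The authors deposited raw read counts per gene symbol, 1 table per sample. Build mm10 and the tools STAR, cutadapt 1.13, DESeq2 and HTSeq 0.6.1p1 are named, with no order, per the submitters' processing notes. Neither the gene annotation nor the strand setting is given in the sources used here, so genes whose exons overlap another gene have uncertain counts. Among the 35 genes the shared part of the exons was 63.5% for Trf, 54.2% for Pllp, 19.2% for Evi2a, 12.9% for Nkx6-2, 12.6% for Bcas1, 7.26% for Olig1, 6.52% for Ermn, 5.97% for Enpp2, 4.23% for Cnp, 1.85% for Tspan2 and 1.15% for Mobp. Among the other oligodendrocyte genes named it was 17.0% for Cryab, 5.96% for Lass2, 3.50% for Tmem63a and 2.69% for Galc. Counts were scaled with TMM factors and filtered with filterByExpr in edgeR 4.0.16 (R 4.3.3). The robust quasi-likelihood test compared genotypes within a tissue, WT tissues with each other, and the 2 genotype effects over all 14 samples. Calls are adjusted p-values under 0.05 by the Benjamini-Hochberg method over all genes tested. Log2 fold changes are cKO minus WT. Levels of the 35 genes set between genes or tissues are CPM scaled over all 14 libraries, per kilobase of merged GENCODE vM21 exons where genes are compared. Sums of marker genes are CPM scaled within a tissue, also where the tissues are set side by side. Through that annotation and its synonyms, 89.8% of symbols matched as written, 8.16% through a synonym and 2.02% not at all. Promoter letters are from RefSeq on GRCm38.p6.

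The 35 genes and all other lists were chosen with earlier results of these data known. All 35 are named. Values in every sample are given for the genes called in striatum or cerebellum and for Mbp, Sox10, Olig1 and Olig2, and up to 3 called genes per direction and tissue are named from the 62 further genes. Alternatives were DESeq2's size factors, no low-count filter, a mean CPM of at least 1, DESeq2 1.42.0, limma-voom (limma 3.58.1), a replicate block, sex read from Xist and Y-linked counts, all samples in 1 model, removal of the trend with exon length, and leaving out each sample. Library totals of 12595941 to 28099205 counts gave members at least 57 counts in every library. The 4 edgeR comparisons were checked on simulated counts.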

Additional observations from a re-analysis of the deposited data

Results flagged for a closer look

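In 7 genes the genotype effect differed between the tissues by edgeR's interaction test. Cerebellar minus striatal log2 fold changes were 0.94 for Tspan2 (adjusted p = 0.00861), 0.72 for Ugt8a (0.0456), 0.70 for Mal (0.0229), 0.70 for Bcas1 (0.0376), 0.68 for Anln (0.0402), 0.63 for Gpr37 (0.0402) and 0.42 for Plekhb1 (0.0465). For Bcas1 the cerebellar cKO libraries lay within the WT range, and for Tspan2 and Plekhb1 the cerebellar genotypes overlapped.

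Single libraries stood apart for 2 enzymes of myelin galactolipid synthesis. Ugt8a was at 88.84 CPM in replicate 4 of WT cerebellum, against 85.42 to 85.72 CPM in the other WT libraries, a gap of 0.912 of the group's range. Gal3st1 was at 5.889 CPM in replicate 2 of cKO cerebellum, against 7.938 to 8.316 CPM, a gap of 0.844 of the range. Both gaps are past the limit of Dixon's test for 4 samples. In all, 70 pairs of a gene and a cerebellar group were examined. The 2 flagged are no more than the about 1 in 20 that chance flags.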

How the results depend on the processing

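The count of members lower in cKO striatum, 10 as reported, was 21 with DESeq2, 21 with limma-voom, 22 with all 14 samples in 1 model and 6 with sex as a covariate. In the same order, 0.544%, 1.09%, 1.89% and 0.249% of all genes were called lower, against 0.320% as reported. With 1 library left out the members' count ran from 0 (without cKO replicate 1 or 3) to 14 (without WT replicate 1), and the median log2 fold change from −0.82 (without cKO replicate 2) to −0.57 (without cKO replicate 3). The share of all genes called lower ran from 0.00702% to 0.667% in the same fits. The cerebellar count of 11 was 2 with all samples in 1 model and was 7 with cKO replicate 2 left out and 15 with WT replicate 1 left out, its lowest and highest values. In the same order, 1.16%, 3.43% and 4.55% of all genes were called lower, against 4.96% as reported. The interaction count of 7 was 14 with DESeq2 and 11 with limma-voom, and ran from 1 to 13 (without striatal WT replicate 2). Over all genes the 60 interaction calls became 229 with DESeq2, 102 with limma-voom and 193 without striatal WT replicate 2. Apart from the replicate block, given below, the members' counts under the other settings stayed within 1.5 times, as did the count of 26 members that differ between the WT tissues. With 1 library left out, Omg in striatum ran from −0.07 to 0.01, Cmtm5 in striatum from −0.22 to 0.13, Enpp2 in cerebellum from −0.03 to 0.56 and Olig1 in cerebellum from −0.06 to 0.03. The causes of these shifts were not tested. Every member had at least 57 counts in each library.

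A replicate block here treats libraries of the same number within a tissue as paired. With it, edgeR called 1 member in striatum (29 had an unadjusted p under 0.05) and 11 in cerebellum. For the interaction it called 0, and 23 had an unadjusted p under 0.05. Of all genes it called 0.0639% lower in striatum and 5.45% in cerebellum, and 13 for the interaction. The labels do not say what the numbers share. Deviations of same-numbered libraries correlated by 0.133, 0.0896 and 0.0574 in striatum and by 0.34, 0.163, 0.0569 and 0.205 in cerebellum. Each striatal library correlated best with its own number, but only barely for WT replicate 3, which correlated by 0.057 with cKO replicate 2. In cerebellum WT replicate 1 and cKO replicate 2 did, and the other libraries did not.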

Other observations

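The balance of 2 members within a library does not depend on how libraries are scaled to each other. Ratios to Olig1 were chosen after the values were seen and were not tested. The ratio of Mal to Olig1 CPM was 4.79, 3.67 and 3.74 in WT striatum and 2.35, 2.30 and 2.10 in cKO striatum. It was 2.49, 2.30, 2.80 and 2.34 in WT cerebellum and 2.02, 1.72, 1.87 and 2.21 in cKO cerebellum. For Mal all cKO libraries lay below all WT libraries of their tissue. Mbp to Olig1 was 38.7, 32.6 and 34.0 in WT striatum and 27.4, 28.9 and 25.7 in cKO striatum, without overlap. In cerebellum it was 41.5, 37.5, 45.7 and 39.0 in WT and 35.9, 32.3, 39.9 and 38.4 in cKO, and the genotypes overlapped. Sox10 to Olig1 was 0.546 ± 0.139 in WT and 0.352 ± 0.0452 in cKO striatum (SD, n = 3), and 0.510 ± 0.0385 in WT and 0.462 ± 0.0203 in cKO cerebellum (SD, n = 4).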
